A study of Homo sapiens with 16 samples.

Results

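The apoptotic caspases and their inhibitors are described here as 8 genes: the death receptor caspases CASP8 and CASP10 with their decoy CFLAR, the caspases CASP2 and CASP9 with the scaffold APAF1, the executioner caspase CASP6, and the inhibitor XIAP. They were chosen by symbol: every feature of the array (a probe set, a group of short probes for the transcripts of a gene) that the platform annotation assigns to exactly 1 of these genes was taken, and where a gene had several, its values come from the one that was brightest over all 16 arrays. This gave 37 probe sets for the 8 genes, out of 49395 probe sets and 18132 genes in all, and 2 further probe sets that name CASP6 together with PLA2G12A were not used. RNA was measured on 16 Affymetrix PrimeView arrays of the human cell line Nalm6, a leukaemia of B-cell precursors, with 4 arrays in each of 4 groups.

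The groups crossed a line with a treatment. Control Nalm6 cells and Nalm6 cells whose labels give an active, overexpressed CASP1, the inflammatory caspase, were each either left untreated or given the glucocorticoid prednisolone for 24 hours. The treatment is spelled "predisone" in the sample labels and prednisolone in the protocol, with no dose named in the sources used here. These also leave out the vector, the promoter and whether either line is a single clone. All groups share the same parental line and medium. The title of the series names the question, which is whether CASP1 cuts the glucocorticoid receptor and so makes leukaemia cells resist glucocorticoids, the drugs whose killing of lymphoid cells runs through apoptosis.

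Apoptosis is carried out by caspases, proteases that lie dormant until they are brought together or cut. In the extrinsic route, death receptors at the cell surface gather the adaptor FADD and CASP8 or CASP10 into a complex, in which CFLAR, whose product cFLIP resembles these caspases but lacks their protease activity, takes their place. In the intrinsic route, cytochrome c released from mitochondria lets APAF1 assemble with CASP9, which then cuts the executioner caspases, and XIAP binds and blocks CASP9 and the executioners. Glucocorticoids kill lymphoid cells mainly through the intrinsic route. Caspases are controlled largely by cutting and binding of the proteins, neither of which an RNA array measures.

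The check of the labels went against them. Arrays labelled CASP1 had less CASP1 signal than control arrays, with a log2 difference of -2.06 (4.16-fold lower) in untreated cells and of -1.93 with prednisolone, with no overlap between arrays. Whether the probes read the introduced construct is not stated, so every direction between the lines follows the labels. Of 10 listed B-cell precursor markers 9 were measured. The brightest, VPREB1, a part of the pre-B cell receptor, lay between 12.50 and 13.03 on the log2 scale on every array. The dimmest of the 9, CD79A, lay between 6.04 and 7.82. RAG1 (10.29 to 12.37) and MME (10.41 to 12.24) varied more between arrays than VPREB1. The summed signal of these 9 markers, on the log2 scale, ranged from 14.35 to 15.10 over the 16 arrays, and was lowest among treated cells labelled CASP1 (14.35 to 14.85). The summed signals of T cell, myeloid, erythroid and fibroblast markers stayed between 4.90 and 7.58, and their part in the results was not tested. Replicate 1 of each group stood apart, with a mean correlation to the other arrays of its group of 0.984 to 0.992 against 0.991 to 0.995 for the others, so the members' calls are also given without these 4 arrays.

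The members were measured at very different probe set signals, from a mean of 9.34 (log2) for the brightest CASP2 probe set to 2.97 for the dimmest of CFLAR. Signals of different probe sets do not rank their genes, since probes differ in how well they bind. The number of probe sets was 8 for CASP8, 5 for CASP10, 9 for CFLAR, 3 for CASP2, 2 for CASP9, 4 for APAF1, 1 for CASP6 and 5 for XIAP. Of the 37, 15 have names ending in x_at, which marks probes that can also match transcripts of other genes. The probe sets used for CASP6, CASP8 and CFLAR are of that kind. The name of the one used for CASP2 ends in s_at, which marks probes that transcripts of different genes may share. No detection calls are used here, so it is not known which dim probe sets lie above background. A bulk array cannot tell less RNA per cell from fewer cells that hold the RNA.

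**Figure D1:**
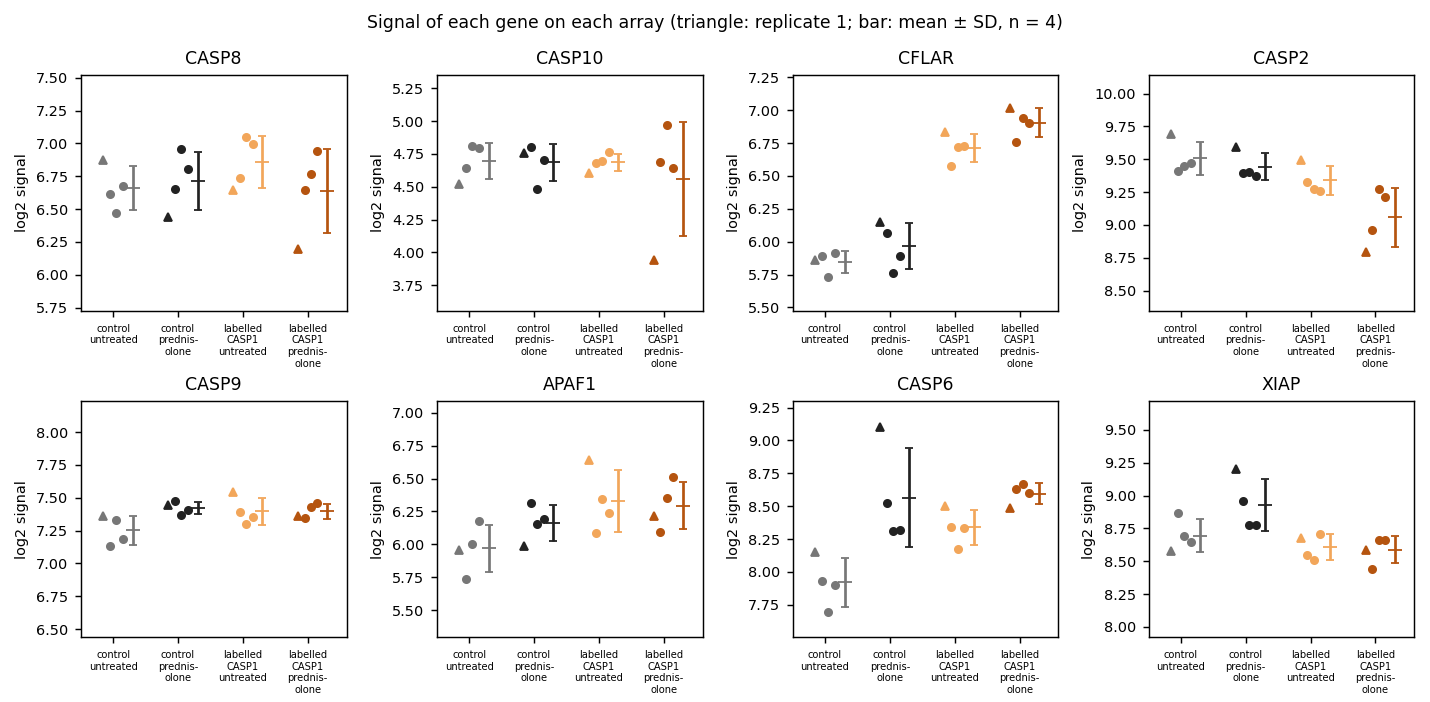
Log2 signal (vertical axis, a window of the same height for each gene) of the 8 genes on each of the 16 arrays, by group; triangles are replicate 1, circles replicates 2 to 4, and the bars give the mean ± SD (n = 4). CFLAR separates the lines in both treatments, and CASP6 separates untreated from treated control cells.

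CFLAR was the member that differed most between the lines. In untreated control cells its signal was 5.86, 5.89, 5.73 and 5.91 (log2, replicates 1 to 4), and in untreated cells labelled CASP1 it was 6.83, 6.58, 6.72 and 6.73. Treated control cells gave 6.15, 6.06, 5.76 and 5.89, and treated cells labelled CASP1 gave 7.02, 6.76, 6.94 and 6.90. Every array labelled CASP1 lay above every control array, with or without prednisolone. The difference was 0.87 (SE 0.095, 1.82-fold) in untreated cells, with a limma adjusted p = 8.35e-06. It was 0.94 (1.92-fold) in treated cells, with a limma adjusted p = 3.74e-06. Leaving out any 1 array gave 0.83 to 0.91 and 0.87 to 1.001, and leaving out the 4 replicate 1 arrays gave 0.83 and 0.96. The prednisolone change of CFLAR did not pass the test in either line, with a difference of 0.12 (95% interval -0.08 to 0.32) in control cells and 0.19 (-0.01 to 0.39) in cells labelled CASP1. The difference between these responses was 0.07 (-0.21 to 0.36, adjusted p = 0.93).

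The 9 CFLAR probe sets did not move alike. The probe set with the highest signal (11753152_x_at, mean 6.36) gave the values above. The next, 11720275_a_at (mean 5.87), whose name marks probes for several transcripts of 1 gene, was at 5.74, 5.44, 5.43 and 5.52 in untreated control cells and at 6.32, 5.95, 5.98 and 6.09 in untreated cells labelled CASP1, also without overlap. In treated cells it lay at 5.70, 5.45, 5.70 and 5.68 in control cells and at 6.32, 6.26, 6.18 and 6.20 in cells labelled CASP1. These are differences of 0.55 and 0.61 (limma adjusted p = 0.0012 and 0.00047 over all probe sets). The next brightest, 11756996_x_at (mean 5.17), was at 4.78, 4.70, 4.94 and 4.62 in untreated control cells and at 5.29, 5.45, 5.46 and 5.42 in untreated cells labelled CASP1. In treated cells its values were 5.30, 5.13, 4.996 and 5.06 against 5.43, 5.34, 5.17 and 5.57, so here the groups overlapped. This CFLAR probe set was also the only one of the 9 called for prednisolone, higher in treated control cells by 0.36 (limma adjusted p = 0.025). With tests over all probe sets, 3 of the 9 were called higher in untreated and 2 of the 9 in treated cells labelled CASP1, and 0 were called lower in either (limma). The 6 dimmer ones, with means of 2.97 to 4.93, were not called in either comparison, and over all 9 the differences ran from -0.08 to 0.87 in untreated cells and from -0.25 to 0.94 in treated cells. With the mean of all 9 in place of the brightest, the treated line difference of CFLAR was 0.10 and no longer passed (limma adjusted p = 0.37), and the untreated one was 0.22 (limma adjusted p = 0.032). The array annotation gives a sequence record for each CFLAR probe set. The probe sequences were not at hand, so the isoforms that each probe set reads were not worked out.

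**Figure D2:**
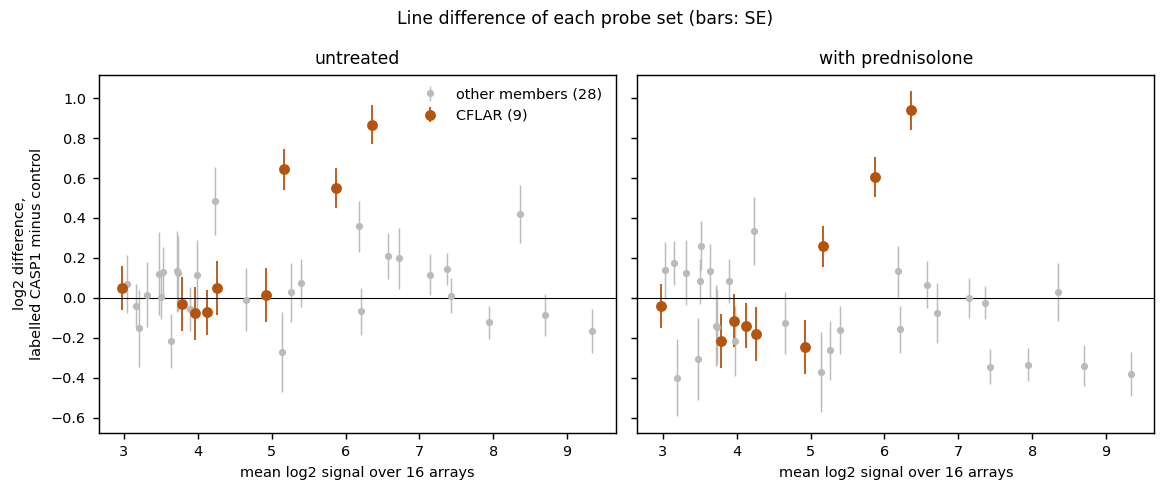
Line difference (log2, cells labelled CASP1 minus control cells, vertical axis) of each of the 37 probe sets against its mean log2 signal over 16 arrays (horizontal axis), untreated on the left and with prednisolone on the right; orange points are the 9 probe sets of CFLAR, grey points the other 28, bars are SE. The CFLAR probe sets of highest signal lie well above 0, and the dimmer ones lie near 0 in untreated cells and at or below 0 in treated cells.

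The start regions of CFLAR and CASP6 are shown for their calls by the brightest probe set of each gene. By these, CFLAR was the only member called between the lines in both treatments. CASP6 was the only one called for prednisolone in control cells. The glucocorticoid receptor binds DNA as a pair at the palindrome of AGAACA, 3 bases of any kind and TGTTCT, or at single half-sites AGAACA. The RefSeq promoter table (GRCh38.p14, 250 bases before to 50 after each start) held 16 sequences for 7 of the 8 genes, and CASP10 is named only. Each is written in the sense of its gene, 5′ to 3′, with half-sites on either strand in capitals.
CFLAR, chr2:201118466-201118765, plus strand: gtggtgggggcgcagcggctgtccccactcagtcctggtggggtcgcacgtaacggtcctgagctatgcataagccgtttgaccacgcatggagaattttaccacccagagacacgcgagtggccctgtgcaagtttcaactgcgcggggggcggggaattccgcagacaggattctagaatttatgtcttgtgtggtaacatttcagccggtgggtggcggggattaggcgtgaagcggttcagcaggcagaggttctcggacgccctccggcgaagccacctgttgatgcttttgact
CFLAR, chr2:201128715-201129014, plus strand: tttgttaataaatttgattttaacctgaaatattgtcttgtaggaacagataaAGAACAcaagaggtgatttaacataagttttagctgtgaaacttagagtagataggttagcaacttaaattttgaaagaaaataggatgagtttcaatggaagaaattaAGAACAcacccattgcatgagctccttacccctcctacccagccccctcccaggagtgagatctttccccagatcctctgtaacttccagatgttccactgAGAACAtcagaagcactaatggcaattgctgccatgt
CASP6, chr4:109703396-109703695, minus strand: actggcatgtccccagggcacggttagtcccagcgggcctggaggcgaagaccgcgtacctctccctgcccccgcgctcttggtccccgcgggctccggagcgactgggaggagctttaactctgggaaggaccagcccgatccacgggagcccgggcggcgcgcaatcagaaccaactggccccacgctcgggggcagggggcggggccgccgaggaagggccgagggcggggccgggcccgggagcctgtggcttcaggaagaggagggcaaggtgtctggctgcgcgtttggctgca
The full palindrome was in 0 of the 16 sequences and in 1 of all 35116 promoters of the table (0.00285%), searched on both strands. The half-site was in 3 of the 16, and in 14.8% of all promoters. The second CFLAR start shown held 3 half-sites, beginning at positions -197, -88 and 13 counted from the start site. It held the most of the 16 sequences, and 0.216% of all promoters held at least 3. That share describes a window picked for its count. The CFLAR starts at chr2:201132531-201132830 and chr2:201140025-201140324, not shown, held 0 half-sites, as did the first CFLAR start. The other 2 sequences with a half-site belonged to CASP8 (at 10) and XIAP (at -195). The GC box GGGGCGGGG was in 6 of the 16 and in 15.7% of all promoters, and the first CFLAR start and the CASP6 start each held at least 1. These are matches of letters in windows, and which CFLAR start the cells use was not measured.

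CASP8 and CASP10, the initiator caspases of the death receptor complex, are neighbours of CFLAR on chromosome 2. CASP8 lay between 6.47 and 6.88 in untreated control cells and between 6.64 and 7.05 in untreated cells labelled CASP1, with overlap (difference 0.20, 95% interval -0.12 to 0.51). In treated cells CASP8 ranged from 6.44 to 6.96 in control cells and from 6.20 to 6.94 in cells labelled CASP1, and the difference was -0.08 (-0.39 to 0.24). CASP8 was called in none of the 5 comparisons with limma. Without the 4 replicate 1 arrays it was higher in untreated cells labelled CASP1 by 0.34 (limma adjusted p = 0.040). All 8 of its probe sets had an untreated line difference above 0, from 0.01 to 0.21, and 0 of them were called.

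CASP10 had a low signal throughout, with group means from 4.56 to 4.69 for its brightest probe set. Its differences lay between -0.13 and -0.01 in the 4 simple comparisons, and none passed. The widest spread came from replicate 1 of the treated cells labelled CASP1, at 3.94 where the other 3 arrays were at 4.69, 4.97 and 4.64. None of the 5 CASP10 probe sets was called in any comparison with limma.

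In the order of genes along chromosome 2, CFLAR, CASP10 and CASP8 stand side by side in that order, between NDUFB3 and FLACC1. The neighbours were looked at after the CFLAR values were seen, and comprise 3 genes on each side, all 6 measured. NDUFB3, a subunit of respiratory complex I, differed between the lines by -0.08 untreated and FLACC1 by 0.04, and neither was called. Of the other 4, HYCC2 was higher in untreated cells labelled CASP1 by 0.36 (limma adjusted p = 0.0075). ORC2, a subunit of the origin recognition complex, and TRAK2, an adaptor of mitochondrial transport, were lower by differences of -0.40 and -0.59 (limma adjusted p = 0.029 and 0.031). In treated cells HYCC2 (0.26) and TRAK2 (-0.65) were called (limma adjusted p = 0.047 and 0.015), and ORC2 was not (-0.33, limma adjusted p = 0.063). STRADB was called in neither treatment. Of all genes, 5.87% were called higher and 8.2% lower untreated, and 7.88% and 8.52% treated.

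CASP6 was the only member called for prednisolone in control cells. This executioner caspase, which cuts nuclear lamins among other proteins, has 1 probe set. Its signal was 8.15, 7.93, 7.70 and 7.90 in untreated and 9.11, 8.53, 8.31 and 8.32 in treated control cells. All 4 treated arrays lay above all 4 untreated ones, and replicate 1 was the highest array of both groups. The rise was 0.65 (SE 0.14, 1.57-fold, limma adjusted p = 0.0043), and 0.54 without the 4 replicate 1 arrays (limma adjusted p = 0.00039).

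In cells labelled CASP1, CASP6 was at 8.50, 8.34, 8.18 and 8.33 untreated and at 8.49, 8.63, 8.67 and 8.60 with prednisolone. The groups overlapped only in that the lowest treated array, replicate 1, lay just below the highest untreated array, also replicate 1. The difference was 0.26 (limma adjusted p = 0.38) over all arrays, and 0.35 without the 4 replicate 1 arrays, where it passed (limma adjusted p = 0.018). The 2 responses differed by -0.39 (95% interval -0.82 to 0.04), a test that did not pass (limma adjusted p = 0.55). Leaving out treated control replicate 1 gave -0.21, and leaving out all 4 replicate 1 arrays gave -0.20. The untreated lines did not overlap in CASP6, which was 0.42 higher in cells labelled CASP1, but that missed the threshold (limma adjusted p = 0.063). It passed without the 4 replicate 1 arrays (0.44, limma adjusted p = 0.0022), with untreated control replicate 1 alone left out (0.50, limma adjusted p = 0.039) and with treated control replicate 1 alone left out (0.42, limma adjusted p = 0.0086). With prednisolone the lines differed in CASP6 by 0.03 (-0.27 to 0.33). That value was 0.21 with treated control replicate 1 left out, and 0.25 without the 4 replicate 1 arrays (limma adjusted p = 0.059).

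CASP2, a caspase of the PIDDosome complex with roles in DNA damage and in cells with surplus centrosomes, was lower in treated cells labelled CASP1 than in treated control cells. Treated control cells gave 9.59, 9.39, 9.41 and 9.37, and treated cells labelled CASP1 gave 8.79, 8.96, 9.28 and 9.21. The groups did not overlap, and the array labelled CASP1 farthest below was replicate 1. The difference was -0.38 (SE 0.11, 1.30-fold lower, limma adjusted p = 0.020). It was -0.24 without the 4 replicate 1 arrays (limma adjusted p = 0.046), and it missed the threshold without replicate 1 of the treated control cells (-0.33), or without replicate 1 (-0.29) or replicate 2 (-0.35) of the treated cells labelled CASP1 (limma adjusted p = 0.054 to 0.063). With the mean of its 3 probe sets the treated CASP2 difference was -0.30 and did not pass (limma adjusted p = 0.11). With only the arrays of the groups compared it did not pass either (limma adjusted p = 0.066). In untreated cells CASP2 was at 9.69, 9.41, 9.45 and 9.47 in control cells and at 9.50, 9.32, 9.28 and 9.26 in cells labelled CASP1. These groups overlapped through replicate 1 of the latter, and the difference was -0.17 (-0.39 to 0.06). Prednisolone differences of CASP2 were -0.06 for control cells and -0.28 for those labelled CASP1, and neither passed (limma adjusted p = 0.83 and 0.15). All 3 CASP2 probe sets had values below 0 in each of the 5 comparisons, and 1 of the 3 was called, in the treated line comparison.

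CASP9, the initiator caspase of the intrinsic route, and its scaffold APAF1 were called in no comparison with limma. CASP9 varied little, with group means of 7.25 to 7.42 and differences of -0.02 to 0.17 in the 4 simple comparisons. The interval of its prednisolone difference was 0.002 to 0.34 for control cells and -0.17 to 0.17 for those labelled CASP1. APAF1 was at 5.96, 5.74, 6.01 and 6.18 in untreated control cells and at 6.64, 6.09, 6.34 and 6.23 in untreated cells labelled CASP1, with overlap. That difference of 0.36 (SE 0.13) missed the threshold (limma adjusted p = 0.070). It passed when the arrays were quantile normalized again (0.38, limma adjusted p = 0.041), when each was centred on its 75th percentile (0.40, limma adjusted p = 0.034) and without replicate 2 of the untreated cells labelled CASP1 (0.44, limma adjusted p = 0.038). Without the 4 replicate 1 arrays it was 0.25 (limma adjusted p = 0.20). All 4 APAF1 probe sets had an untreated line difference above 0, from 0.13 to 0.48, and 0 were called.

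XIAP, the direct inhibitor of CASP9 and of the executioner caspases, was lower in treated cells labelled CASP1 than in treated control cells. Its brightest probe set was at 9.20, 8.96, 8.78 and 8.78 in treated control cells and at 8.59, 8.44, 8.66 and 8.66 in treated cells labelled CASP1, with no overlap. The difference was -0.34 (SE 0.10, 1.27-fold lower, limma adjusted p = 0.028). It was -0.25 without the 4 replicate 1 arrays (limma adjusted p = 0.074), and it missed the threshold without replicate 1 (-0.25) or replicate 2 (-0.33) of the treated control cells and when replicate 2 of the treated cells labelled CASP1 was left out (-0.29), with limma adjusted p between 0.071 and 0.096. With only the arrays of the groups compared the XIAP difference did not pass either (limma adjusted p = 0.082). All 5 XIAP probe sets lay below 0 in this comparison, from -0.40 to -0.21, and 3 of them were called lower.

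In untreated cells XIAP was at 8.58, 8.87, 8.69 and 8.64 in control cells and at 8.68, 8.55, 8.51 and 8.71 in cells labelled CASP1. These arrays overlapped, and the difference was -0.09 (-0.30 to 0.13). The prednisolone difference of the brightest XIAP probe set in control cells was 0.23 (limma adjusted p = 0.17), which did not pass. The next brightest, 11755086_x_at, was at 7.73, 7.86, 7.95 and 7.93 in untreated and at 8.20, 8.32, 8.15 and 8.29 in treated control cells, without overlap. The next, 11725700_s_at, whose name marks probes that transcripts of different genes may share, went from 7.17, 7.17, 7.39 and 7.40 to 7.74, 7.73, 7.74 and 7.75. These 2 XIAP probe sets were called higher with prednisolone in control cells, by 0.37 and 0.46 (limma adjusted p = 0.0048 and 0.0013), and all 5 had values above 0 there, from 0.23 to 0.50. With the mean of its 5 probe sets, XIAP rose in control cells by 0.41 (limma adjusted p = 0.0072). In cells labelled CASP1 the prednisolone differences of the 5 ran from -0.02 to 0.25 and 0 were called, and the difference between the 2 responses was -0.25 for the brightest (limma adjusted p = 0.60).

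**Figure D3:**
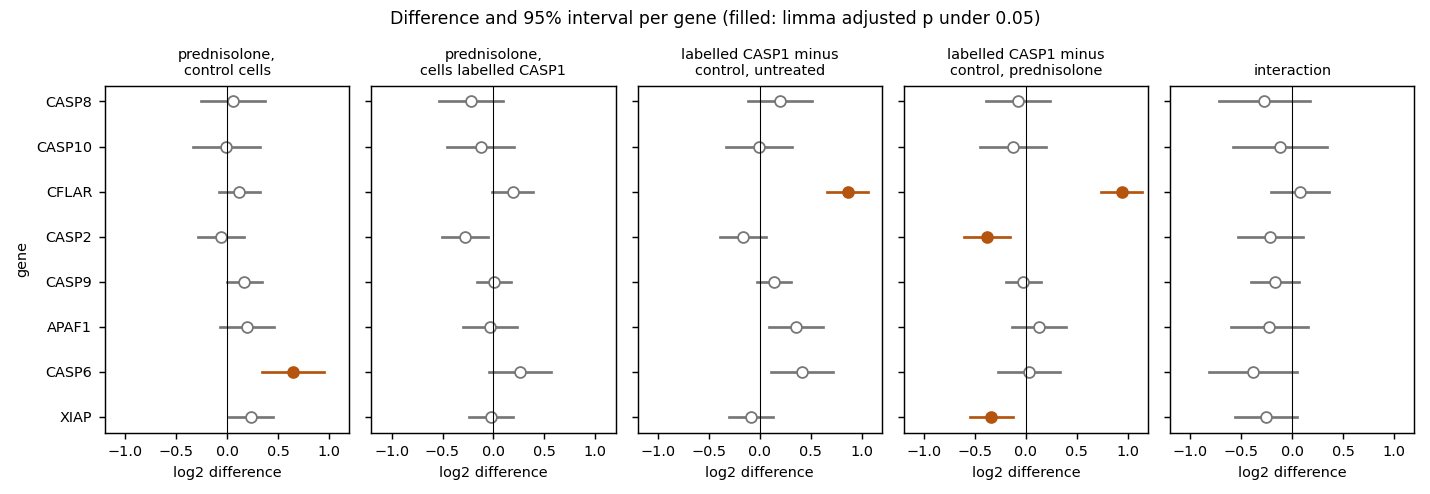
Log2 difference (horizontal axis) of each of the 8 genes in the 5 comparisons, as a point with its 95% interval; filled orange points passed at a limma adjusted p under 0.05. In the comparison of treated cells CFLAR lies to the right of 0 and CASP2 and XIAP to the left, and in the interaction 7 of the 8 points lie below 0 with none filled.

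Counted over the 8 members, few calls were made, and they are read against all 18132 genes tested. For prednisolone in control cells, 1 of the 8 was called higher and 0 lower, where 5.73% of all genes were called higher and 8.43% lower. In cells labelled CASP1, 0 members were called for prednisolone by limma, against 2.99% higher and 3.35% lower of all genes. At an unadjusted limma p under 0.05 there was 1 member, against 17.7% of all genes, and with a trend and robust variance model 0 were called. Between the untreated lines, 1 member was called higher and 0 lower, against 5.87% and 8.2%. Between the treated lines, 1 was called higher and 2 lower, against 7.88% and 8.52%. The interaction subtracts the prednisolone change of control cells from that of cells labelled CASP1. There 0 members were called by limma, against 0.524% higher and 0.364% lower. At an unadjusted limma p under 0.05 there were 0 members, against 10.3% of all genes, and 0 were called with the trend and robust model.

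The median difference of the 8 members was 0.14 for prednisolone in control cells, where the median of all genes was -0.01, and -0.03 against 0.02 in cells labelled CASP1. Between the lines it was 0.17 against 0.01 untreated and -0.05 against 0.04 with prednisolone. The interaction values were below 0 for 7 of the 8, with CFLAR the exception, and their median was -0.22 against 0.03 for all genes. With the 4 replicate 1 arrays left out, 6 of the 8 were below 0, with CASP10 also above it, and the median was -0.12 against 0.04. The medians in the 4 simple comparisons, in the order above, were then 0.15, 0.06, 0.19 and 0.05, against -0.01, 0.02, -0.01 and 0.03 for all genes, so the signs of the member medians for prednisolone in cells labelled CASP1 and for the treated lines turned. The interaction is built from the same arrays as the other comparisons, and none of its member values passed. Over all 37 probe sets, 4 were called higher and 0 lower with prednisolone in control cells, where limma called 5.23% of all probe sets higher and 7.08% lower. In cells labelled CASP1 0 were called, against 2.35% higher and 2.84% lower. There 2 of the 37 had an unadjusted limma p under 0.05, where 17.7% of all genes, each by 1 probe set, had one. Between the untreated lines 3 were called higher and 0 lower, against 4.96% and 7.03%. Between the treated lines 2 were called higher and 4 lower, against 6.53% and 8.07%. The comparisons within a line and those between the lines share arrays, so their counts are not independent.

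Across the 16 arrays the genes most like each called member were found by Pearson's r of log2 signal, as a description of arrays that share groups and replicate numbers. For CFLAR they were KLF10 (r = 0.976), a zinc finger factor induced by TGF-beta, and MXD1 (r = 0.968), a partner of MAX. The group means of KLF10 were 6.81 and 7.04 in untreated and treated control cells and 8.99 and 8.99 in cells labelled CASP1. For CASP6 they were SLC48A1 (r = 0.926), a haem transporter, and HADHA (r = 0.919), an enzyme of fatty acid oxidation. SLC48A1 had group means of 7.49 and 9.004 in untreated and treated control cells, and 8.23 and 9.02 in cells labelled CASP1. For CASP2 they were GTF3C2 (r = 0.975), a subunit of the transcription factor TFIIIC, and ZNF512 (r = 0.951), and for XIAP CHSY1 (r = 0.894), a chondroitin synthase, and RAB40B (r = 0.881). Among the members themselves, r ran from -0.66 for CASP2 with CFLAR to 0.67 for CASP6 with CASP9.

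The other genes of apoptosis signalling were taken from 8 lists by role, of which 45 genes are described here. Of the 45, 4 rose and 1 fell with prednisolone in control cells (5.73% and 8.43% of all genes), while cells labelled CASP1 had 2 that rose and 1 that fell (2.99% and 3.35%). Between the lines, 8 were higher and 5 lower in untreated cells labelled CASP1 (5.87% and 8.2% of all genes), and 10 higher and 8 lower in treated ones (7.88% and 8.52%). These counts changed when the 4 replicate 1 arrays were left out. Then 6 rose and 8 fell with prednisolone in control cells (8.8% and 13.1% of all genes), while cells labelled CASP1 had 3 that rose and 5 that fell (5.77% and 6.15%). The line counts were then 8 higher and 11 lower untreated (8.53% and 12.8%) and 9 and 9 treated (11.6% and 10.8%). In the interaction 0 were called by limma (0.524% higher and 0.364% lower of all genes), and 2 had an unadjusted p under 0.05 (10.3%). The 1 called without the 4 replicate 1 arrays was PIDD1 (4.01% of all genes). The median of the 45 was -0.08, -0.01, 0.01, 0.05 and 0.03 in these 5 comparisons, beside -0.01, 0.02, 0.01, 0.04 and 0.03 for all genes.

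Death receptors start the route that CFLAR gates, and their list here also holds decoy receptors and ligands. Of its 10 genes, all measured, 4 were higher in cells labelled CASP1 in each treatment (5.87% of all genes untreated, 7.88% treated). In both treatments 0 were lower. TNFRSF10D, a decoy receptor for the ligand TRAIL, had the largest difference of this list, at 1.25 (2.39-fold, limma adjusted p = 0.0010) untreated and 1.39 with prednisolone (limma adjusted p = 0.00035). Its values were 2.82, 3.46, 3.91 and 3.66 in untreated control cells, near the low end of the arrays, and 4.54, 4.71, 4.93 and 4.68 in untreated cells labelled CASP1. Of its 2 probe sets 1 was called. The others, named after their values were seen, were FAS (1.10 and 1.03) and the TRAIL receptor TNFRSF10B (0.61 and 0.88) in both treatments, TNFRSF10A (0.51) untreated, and TNF (0.40) with prednisolone. TNFRSF10A was also near the low end, at 2.85, 2.57, 2.48 and 2.80 in untreated control cells and at 2.86, 3.55, 3.34 and 3.01 in untreated cells labelled CASP1. The group means of TNF in treated cells were 3.99 for control cells and 4.39 for those labelled CASP1. The count of 4 fell to 2 in untreated cells on leaving out untreated control replicate 2, and to 2 in treated cells without replicate 4 of the treated control cells or replicate 1 of the treated cells labelled CASP1. With prednisolone 0 of the 10 were called in either line by limma. On leaving out the 4 replicate 1 arrays TNFRSF10D was called in both, by 0.51 in control cells and 0.43 in those labelled CASP1 (limma adjusted p = 0.0061 and 0.029), FAS was called in control cells (0.30, limma adjusted p = 0.018), and the treated line difference of TNF no longer passed (0.33, limma adjusted p = 0.057).

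Among the adaptors and necroptosis kinases, PIDD1, the scaffold on which CASP2 is activated, was higher in cells labelled CASP1, by 0.75 (1.68-fold, limma adjusted p = 0.045) in untreated ones. It was at 6.57, 6.81, 6.73 and 6.87 in treated control cells and at 9.65, 7.98, 8.32 and 8.33 in treated cells labelled CASP1, without overlap and with replicate 1 far above the rest. The treated difference was 1.83 (SE 0.24, 3.55-fold, limma adjusted p = 4.17e-05). Without the 4 replicate 1 arrays the differences of PIDD1 were 0.60 and 1.41, and it then also fell with prednisolone in control cells (-0.65, limma adjusted p = 0.00028), with an interaction of 0.81 (limma adjusted p = 0.0059). With all arrays the interaction of PIDD1 was 1.08 and did not pass (limma adjusted p = 0.19). CRADD, the adaptor that joins PIDD1 to CASP2, rose with prednisolone in both lines, by 0.67 in control cells and by 0.58 in those labelled CASP1 (limma adjusted p = 0.00099 and 0.0077). Of its 4 probe sets, 3 were called higher with prednisolone in each line. CRADD was also called higher in cells labelled CASP1 in both treatments. Its group means there were 9.34 against 8.86 in control cells untreated, and 9.92 against 9.53 treated. MLKL, the pore-forming effector of necroptosis, was lower in cells labelled CASP1 by a difference of -1.11 untreated and -1.04 with prednisolone (limma adjusted p = 7.41e-06 and 1.39e-05). MLKL lay between 6.40 and 7.06 on the control arrays and between 5.54 and 5.87 on the others.

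Relatives and opponents of XIAP are read against the shares of all genes. With prednisolone in control cells 5.73% of all genes were called higher and 8.43% lower. Between the lines these shares were 5.87% and 8.2% untreated, and 7.88% and 8.52% treated. In the inhibitor of apoptosis family, 1 of 5 measured genes, BIRC2, an inhibitor that acts as a ubiquitin ligase, rose with prednisolone in control cells by 0.36 (limma adjusted p = 0.0074). BIRC5, which encodes survivin, was the only one of the 5 called between the lines, higher by 0.49 in untreated and 0.73 in treated cells labelled CASP1 (limma adjusted p = 0.0072 and 0.00027). Of the 4 antagonists, XAF1, which binds XIAP, was lower by differences of -0.47 and -0.54, and DIABLO, HTRA2 and SEPTIN4 were not called. CYCS, cytochrome c, the trigger of APAF1 assembly, was lower in cells labelled CASP1 by differences of -0.45 and -0.29 and fell with prednisolone in control cells (-0.39, limma adjusted p = 0.0017). With the 4 replicate 1 arrays left out, CYCS also fell with prednisolone in cells labelled CASP1 (-0.30, limma adjusted p = 0.017). The treated CYCS difference between the lines did not pass with only the arrays of the groups compared (limma adjusted p = 0.069).

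Downstream of the executioners, GSN, the actin-severing protein gelsolin, had the largest prednisolone change of all 45 genes. It went from 5.95, 6.16, 6.38 and 6.44 to 9.31, 9.51, 9.36 and 9.43 in control cells and from 5.57, 5.63, 5.73 and 5.95 to 8.33, 8.76, 9.04 and 9.02 in cells labelled CASP1. The rises were 3.17 and 3.07, or 8.996-fold and 8.39-fold (limma adjusted p = 9.74e-11 and 3.35e-10). ROCK1, the kinase that drives membrane blebbing once cut, was lower in cells labelled CASP1 by differences of -0.68 and -0.73 (limma adjusted p = 0.00031 and 0.00015). Of its 2 probe sets, 1 was called lower in each treatment. Among 4 other proteins that restrain caspases, PEA15, a death effector domain protein, was higher by 0.46 untreated (limma adjusted p = 0.0034) and AVEN lower in treated cells (-0.51, limma adjusted p = 0.032). The PEA15 difference was 0.31 with the mean of its probe sets (limma adjusted p = 0.064). The AVEN call was lost without replicate 1 (-0.38) or 2 (-0.53) of the treated control cells and on leaving out replicate 2 (-0.43), 3 (-0.47) or 4 (-0.44) of treated cells labelled CASP1. Without the 4 replicate 1 arrays together AVEN was lower in treated cells labelled CASP1 by a difference of -0.56 (limma adjusted p = 0.00018) and in untreated ones of -0.30 (limma adjusted p = 0.016). It then also fell with prednisolone, by differences of -0.25 and -0.51 (limma adjusted p = 0.036 and 0.00065).

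**Figure D4:**
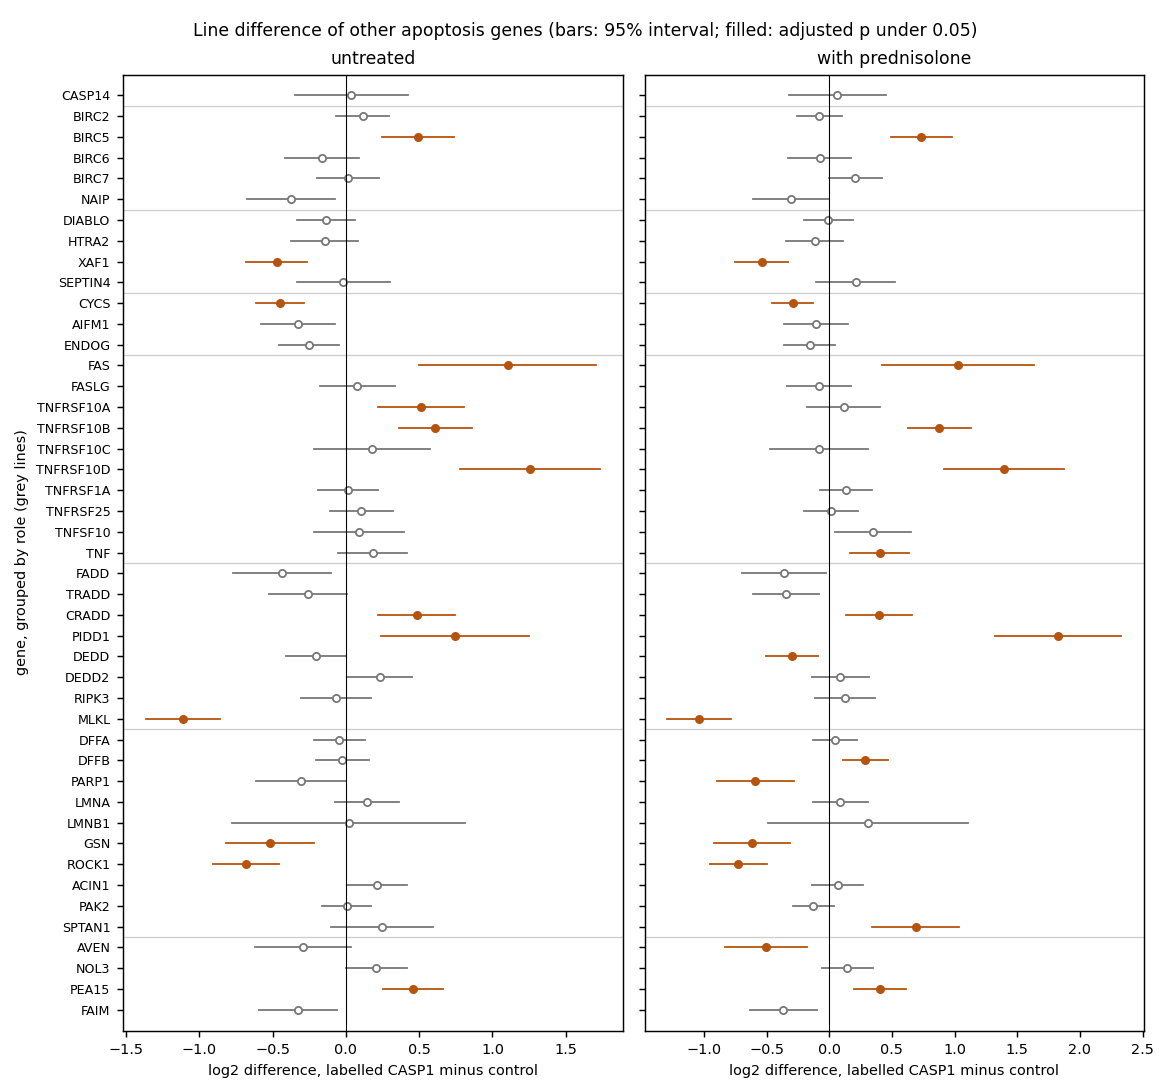
Line difference (log2, cells labelled CASP1 minus control cells, horizontal axis) of the 45 other apoptosis genes, untreated on the left and with prednisolone on the right, with 95% intervals; grey lines part the 8 lists, and filled orange points passed at a limma adjusted p under 0.05. There are 8 filled points to the right and 5 to the left in untreated cells, and 10 and 8 in treated cells.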

How the data were processed

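RNA of 16 samples was measured on Affymetrix PrimeView arrays. The authors deposited 1 log2 signal per probe set and array, made by RMA according to the submitters' processing notes; the sources used here name no software, version or probe set definition. RMA puts arrays on 1 scale, so total RNA per cell was not measured; array medians lay between 4.85 and 4.93. Each of 18132 genes, represented by its brightest probe set with 1 gene in the platform annotation, was tested in limma 3.58.1 (R 4.3.3; 4 group means, 16 arrays, 12 residual degrees of freedom, eBayes without trend, two-sided). Benjamini-Hochberg adjustment ran over all genes, or over all probe sets for single probe sets, and a call is an adjusted p under 0.05. The number of arrays limits the precision. No label says that the samples were separate cultures; the p-values then cover just the spread between these samples, which may be technical. The script was tested on simulated data.

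Named genes were the members, CASP1, from each list and comparison the called gene with the largest difference, and the 2 genes most correlated with each called member. Members, lists and rules were chosen with earlier results of these data known. Alternatives changed normalization, scaling, the filter on dim genes, probe set choice, arrays fitted, the variance model and the replicate block, and left out arrays.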

Additional observations from a re-analysis of the deposited data

Results flagged for a closer look

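In 3 of the 84 sets of 4 arrays examined, 1 array lay far from the other 3, with a gap to its nearest neighbour that, as a share of the range of the set, passed Dixon's 95% limit. Chance gives about 1 such set in 20. CASP2 in treated control cells was highest on replicate 1, at 9.59 with the nearest array at 9.41, a gap of 0.85 of the range. CYCS in untreated cells labelled CASP1 was lowest on replicate 1, at 11.06 with the nearest at 11.15, a gap of 0.894 of the range. ROCK1 in treated control cells was lowest on replicate 1, at 10.83 with the nearest at 11.18, a gap of 0.908 of the range. All 3 arrays are replicate 1 arrays.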

How the results depend on the processing

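Each member difference was recomputed under 24 settings, 16 of which left out 1 array. Of 952 recomputed values, 928 kept their direction where called and their side of the threshold, 11 lost and 13 gained a call, and 0 reversed. For prednisolone in control cells, the count of 1 called member became 2 when probe sets of a gene were averaged. For prednisolone in cells labelled CASP1, 0 became 1 without the 4 replicate 1 arrays. Between the untreated lines, 1 became 3 when arrays were quantile normalized again, 3 when centred on the 75th percentile, 3 without the 4 replicate 1 arrays, 2 with only the arrays of the groups compared, and 1 to 2 on leaving out 1 array. Between the treated lines, 3 became 1 with the mean of probe sets, 1 with only the arrays compared, and 1 to 3 on leaving out 1 array. Whether same-numbered arrays are pairs was not established, and the main fit did not treat them as pairs. Their deviations correlated at -0.12 to 0.51 and above 0.1 in 15 of 24 pairs. All 6 pairs of replicate 1 arrays were above 0.1 (0.19 to 0.51), as were 4, 3 and 2 of 6 for replicates 2, 3 and 4. Replicate 1 arrays correlated with differently numbered arrays of other groups at -0.35 to 0.03. Among replicates 2 to 4, differently numbered pairs ran from -0.05 to 0.30. With the replicate number as a block, CASP6 was also called between the untreated lines (2 members in place of 1), and the block changed no other member call. Calls over all genes became 3174, 1559, 3213, 3819 and 289 with the block, and 3969, 2161, 3876, 4062 and 727 without the 4 replicate 1 arrays, in place of 2568, 1150, 2552, 2974 and 161, in the order prednisolone in control and in labelled cells, lines untreated and treated, and interaction. Either rescaling moved the median of all genes by at most 0.040 (log2). The causes of these changes were not tested.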
